A study of Mus musculus with 5 samples.

Results

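Heparan sulfate proteoglycans and the enzymes that trim their chains were followed in mouse NT2.5 mammary tumour cells and in sub-lines of them that prefer bone or liver as the metastatic site. The set held 10 genes of the 18193 named on the arrays: the syndecans Sdc1, Sdc2, Sdc3 and Sdc4, the glypicans Gpc1, Gpc3 and Gpc4, the heparanases Hpse and Hpse2, and the sulfatase Sulf2. Members were every probe set annotated to these symbols, 22 in all. The members were selected on measured values as well as on function, since the higher intensity of Hpse2 on the bone arrays was part of the choice. Values of bone against liver or parental cells therefore stand here as a description without a test. Of the 22 probe sets, 20 had an intensity of at least 25.1 (the median of all values) on some array, which left 9 of the 10 genes to test. Hpse was the gene left out.

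From bone, passage 3 (early) and passage 6 (final) of the sub-line were hybridised. From liver, they were passage 1 (early) and passage 3 (final). The remaining array held parental NT2.5 cells, labelled wild type, whose labelled metastatic sites are bone, liver and lung. Each array measured 1 RNA sample. NT2.5 is a line from mammary tumours of mice that carry the neu oncogene, and each sub-line is 1 lineage, so that its passages are not independent isolates. The passages served as the 2 replicates of a sub-line, which may differ technically, and the spread of parental cells, with 1 array, was taken to equal theirs. A p-value thus rests on the spread between these passages and on no spread between independent isolates. The fit (limma) also drew each gene's spread toward that of all genes tested.

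Syndecans are transmembrane core proteins and glypicans are anchored to the membrane by a lipid. Both carry heparan sulfate, a sulfated sugar chain that holds growth factors and chemokines at the cell surface. Heparanase (Hpse) cuts these chains in the matrix, where the cut frees bound factors, and it has been studied in tumour invasion and in bone metastasis of breast cancer cells. Its homologue Hpse2 binds the chains but lacks that enzymatic activity and inhibits heparanase. The extracellular sulfatase Sulf2 removes sulfate groups at the 6-O position and so changes which ligands the chains bind.

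The median intensity of an array lay between 21.9 (bone passage 6) and 26.4 (bone passage 3). The epithelial markers Epcam, Cdh1, Krt8 and Krt18 were bright on all 5 arrays, with Epcam between 3761 and 4384, whereas Krt19 stayed at or below 3.3. Of the markers named on the arrays, 0 of 6 for hepatocytes and 1 of 4 for osteoblasts reached 25.1 on any array, as did 3 of 8 for fibroblasts, 2 of 7 for endothelial cells and 7 of 9 for macrophages.

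Hpse2 had the widest range over the 5 arrays among the 9 tested members. Its single probe set read 106 and 74.3 at bone passages 3 and 6, against 11.3 and 8.2 at liver passages 1 and 3 and 3.8 in parental cells. Both bone arrays lay above the other 3, all of which were under 25.1, so that no order is read among those 3. With the liver and parental arrays set at 25.1, the geometric mean of the bone arrays was at least 3.54-fold higher than either line, and no exact fold was measured. On the log2(intensity + 16) scale used throughout, which understates the change of dim genes, the difference as fitted was 2.03 ± 0.22 between bone and liver (SE, n = 2 passages each) and 2.41 ± 0.27 between bone and parental (n = 2 and 1). With a pseudocount of 1 these were 3.08 and 4.23, and with 64 they were 1.06 and 1.18, so that their size is set largely by the pseudocount. Bone was higher under all 3, which had to hold because no pseudocount changes the order of the arrays. The signal was 1.36-fold lower at bone passage 6 than at passage 3 (-0.44). At passage 3, the number that both sub-lines share, bone exceeded liver by 2.34 on the log2 scale.

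Hpse, the active enzyme, was dim everywhere. Its only probe set gave 16.9 and 17.5 at bone passages 3 and 6, against 17.1 and 5.5 at liver passages 1 and 3 and 10 in parental cells. No array reached 25.1, so that Hpse was not tested and no difference between lines was detectable at this signal.

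Promoter windows are shown for 2 members with unlike patterns, Hpse2 (bone apart from the rest) and Sdc1 (parental cells apart from the rest, described next). They are given from RefSeq on GRCm38.p6, each of 300 bases around the annotated start. Hpse2 lies on the minus strand at chr19:43388306-43388605 and Sdc1 on the plus strand at chr12:8771146-8771445. Capitals mark GGGCGG, the GC box, on either strand.
Hpse2: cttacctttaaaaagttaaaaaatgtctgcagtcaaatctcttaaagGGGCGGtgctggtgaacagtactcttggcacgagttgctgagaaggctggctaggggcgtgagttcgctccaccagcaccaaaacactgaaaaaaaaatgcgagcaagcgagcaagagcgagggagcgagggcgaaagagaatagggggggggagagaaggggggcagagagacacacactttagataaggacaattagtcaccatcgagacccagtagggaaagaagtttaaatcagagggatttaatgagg
Sdc1: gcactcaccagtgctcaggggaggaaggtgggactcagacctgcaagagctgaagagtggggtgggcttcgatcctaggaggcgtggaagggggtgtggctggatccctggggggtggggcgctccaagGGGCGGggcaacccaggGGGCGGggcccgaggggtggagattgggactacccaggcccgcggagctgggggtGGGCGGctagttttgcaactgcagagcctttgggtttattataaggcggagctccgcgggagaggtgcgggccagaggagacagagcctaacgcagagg
The Hpse2 window had 48.7% G and C with 1 GC box, and the Sdc1 window 66.3% with 3, beside a median of 52.7% over all 32851 windows, of which 35.7% hold the motif. RefSeq gave 9 windows for 8 members and none for Sdc2 and Gpc1. TATAAA was in 1 of the 9 (the first of the Sulf2 windows) and in 13.6% of all windows. The antioxidant response element TGACNNNGC (in 12.4% of all windows) and the interferon-stimulated response element (in 3.4%), searched on both strands, were in 0 of the 9. These matches describe the letters of the windows only.

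**Figure D1:**
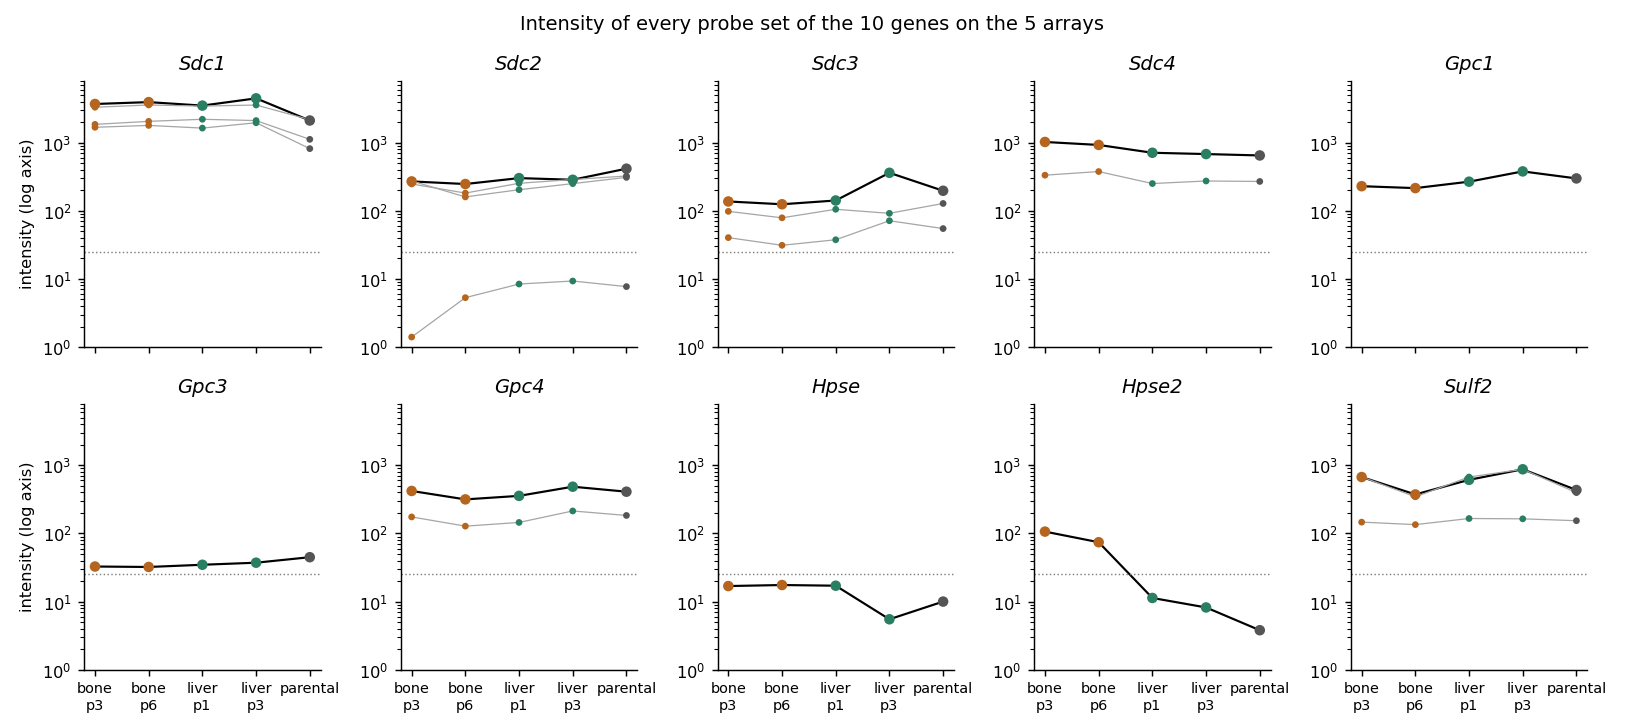
Intensity (log axis) of every probe set of the 10 genes on the 5 arrays, with black lines for the probe set that stands for its gene, grey lines for its other probe sets, brown points for bone, green for liver and dark grey for parental cells. The dotted line is the intensity of 25.1. Hpse2 is above it only on the bone arrays, Hpse on none, and the Sdc1 points of parental cells lie below those of the 4 sub-line arrays.

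Among the syndecans, Sdc1 was higher in both sub-lines than in parental cells. Sdc1 is the main syndecan of epithelial cells. Its brightest probe set read 3683 and 3924 at bone passages 3 and 6, 3488 and 4457 at liver passages 1 and 3, and 2109 in parental cells. All 4 probe sets put all 4 sub-line arrays above the parental one. The log2 difference was 0.85 ± 0.25 for bone against parental (0.66 to 1.07 over the 4 probe sets) and 0.90 ± 0.25 for liver against parental (0.68 to 1.12). For liver against parental, which the choice of members did not use, limma gave an adjusted p of 0.469 over the 12609 genes tested (unadjusted p = 0.0105), so Sdc1 did not pass the threshold of 0.05. Bone and liver overlapped (-0.05 ± 0.20).

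Sdc4, a syndecan of focal adhesions, was highest on the bone arrays. It read 1021 and 923 at bone passages 3 and 6, against 709 and 678 at liver passages 1 and 3 and 647 in parental cells. Its other probe set had the bone arrays highest as well, at 332 and 376, against 251 and 273 for liver and 269 for parental. The differences were 0.48 ± 0.18 for bone against liver and 0.57 ± 0.22 for bone against parental, and 0.10 ± 0.22 for liver against parental (limma adjusted p = 0.954). Neither probe set had a bone array below a liver or parental one.

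Sdc2, best known from mesenchymal cells, had the opposite order on 2 of the 3 probe sets that reached 25.1. Its brightest probe set gave 269 and 247 at bone passages 3 and 6, 301 and 285 at liver passages 1 and 3, and 414 in parental cells. All 3 probe sets that reached 25.1 had the 4 sub-line arrays below the parental one. On 1 of them, bone passage 3 (273.8) was above liver passages 1 and 3 (203.4 and 249.8). The differences were -0.65 ± 0.22 for bone against parental and -0.48 ± 0.22 for liver against parental, where limma's adjusted p was 0.703. The fourth probe set stayed at or below 9.3 on every array.

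Sdc3, known chiefly from the nervous system, stood out on 1 array. Its brightest probe set read 137 and 124 at bone passages 3 and 6, 141 and 360 at liver passages 1 and 3, and 196 in parental cells. The value at liver passage 3 was the highest on 2 of its 3 probe sets (71.3 against 31.1 to 54.7 elsewhere on the dimmest), but on the remaining one liver passage 3 gave 91.6, below liver passage 1 (105) and parental cells (128). The bone arrays were the lowest on the brightest probe set. The liver against parental difference, 0.20 ± 0.49 (limma adjusted p = 0.957), was -0.062 with the probe sets averaged and -0.43 without liver passage 3.

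Of the glypicans, Gpc1 was lowest in bone, Gpc3 was dim and Gpc4 did not separate the lines. Gpc1 read 229 and 215 at bone passages 3 and 6, against 267 and 378 at liver passages 1 and 3 and 298 in parental cells, with both bone arrays lowest (-0.49 ± 0.22 for bone against liver and -0.40 ± 0.27 for bone against parental). Leaving out liver passage 3 gave -0.25 for bone against liver, and leaving out liver passage 1 gave -0.73. Gpc3, which is mutated in a human overgrowth syndrome, was dim, at 32.7 and 32.2 in bone, 34.7 and 37.2 in liver and 44.8 in parental cells. Gpc4, its neighbour on the X chromosome with 0 protein-coding genes between them, read 420 and 316 at bone passages 3 and 6, 356 and 485 at liver passages 1 and 3, and 410 in parental cells. Bone and liver overlapped for Gpc4, and parental cells lay among them. Against parental cells the liver sub-line differed by 0.09 ± 0.27 for Gpc1, -0.23 ± 0.21 for Gpc3 and 0.02 ± 0.29 for Gpc4, and the smallest of the 3 limma adjusted p was 0.867.

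Sulf2 was highest at the final liver passage and lowest at the final bone passage. Its brightest probe set gave 672 and 373 at bone passages 3 and 6, 612 and 874 at liver passages 1 and 3, and 434 in parental cells. A second probe set gave 677 and 345 for bone, 673 and 873 for liver and 397 for parental, in nearly the same pattern. The third was nearly flat, between 135 and 166 over the 5 arrays. Liver exceeded parental cells by 0.98 at passage 3 and 0.48 at passage 1. The mean of 0.73 ± 0.40 (0.09 to 0.92 over the 3 probe sets) was not called by limma (adjusted p = 0.756). Of the 9 macrophage markers, 6 were above parental cells on both liver arrays, among them Csf1r (169 and 220 in liver, 67.6 in parental) and Cd68 (173 and 172 in liver, 52.1 in parental). Itgam and Mrc1, also among the 6, were under 25.1 on every array, where no order is read. No share over all genes stands beside this count, and nothing is read from it. The brightest, Cd14, was below (212 and 242 in liver, 336 in parental), and Ptprc and Adgre1 were above at liver passage 1 and below at passage 3. The summed intensity of the 9 macrophage markers was 833 and 756 in liver, against 548 in parental cells, and 747 and 1195 in bone, most of it Cd14. Ptprc, the defining marker of white blood cells, reached 25.7 on 1 array (liver passage 1), and Itgam stayed at or below 8.8. The part of such cells in the Sulf2 result was not tested. In bulk RNA, fewer cells of a type and less RNA per cell cannot be told apart.

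**Figure D2:**
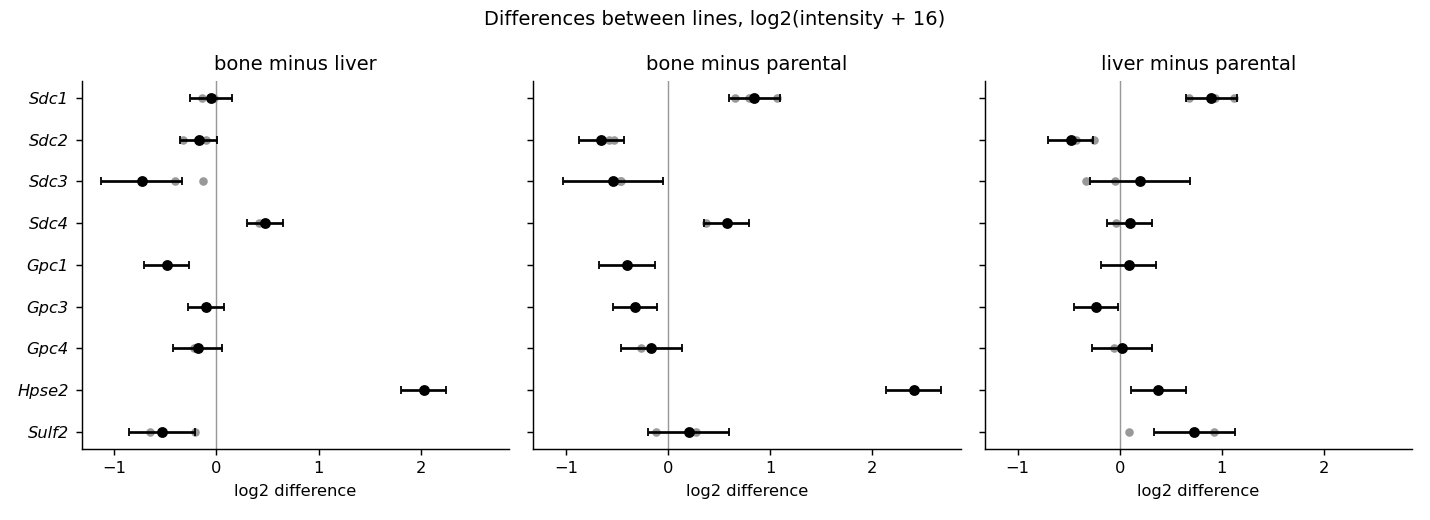
Log2 difference of the 9 tested genes between lines, with black points for the probe set that stands for its gene, bars for ± 1 SE from the limma fit (2 bone arrays, 2 liver arrays, 1 parental array) and grey points for its other probe sets. Hpse2 stands apart at 2.03 (bone minus liver) and 2.41 (bone minus parental), and Sdc1 is near 0 between the sub-lines but at 0.85 and 0.90 against parental cells.

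Over the 9 tested genes, limma called 1 (Hpse2) between bone and liver at an adjusted p under 0.05, where 0.19% of all 12609 genes were called. It called 0 between bone and parental (background 0.135%), with 4 at an unadjusted p under 0.05, as were 8.17% of all genes. Leaving out liver passage 1 or liver passage 3 left 0 of the 9 called between bone and liver, and leaving out either bone array left 1 (Hpse2) called between bone and parental. The members were chosen with these contrasts known, and Hpse2 passed the filter through bone alone. A call of Hpse2 in them is therefore no test, and nothing is read from either count. Between liver and parental it called 0 (background 0.0159%, or 2 genes), and Sdc1 alone had an unadjusted p under 0.05, as did 7.49% of all genes. The median log2 difference of the 9 was -0.17 for bone against liver, -0.16 for bone against parental and 0.10 for liver against parental, beside -0.02, -0.02 and 0.01 over all genes. Both bone arrays were above the other 3 for 2 of the 9 genes (Hpse2 and Sdc4), where 13.7% of all genes were, and below them for 4 (Sdc2, Sdc3, Gpc1 and Gpc3), where 17.6% were. The count of 4 depends on the probe set chosen. Bone was below the other 3 arrays on 2 of 3 probe sets for Sdc2 and on 1 of 3 for Sdc3. All 4 sub-line arrays were above the parental one for 3 (Sdc1, Sdc4 and Hpse2; background 17.6%) and below it for 2 (Sdc2 and Gpc3; background 18.1%). For Hpse2 this count orders liver and parental arrays that were all under 25.1, so that it is not read. For Sdc4 it held on 1 of 2 probe sets, since on the other liver passage 1 (250.5) was below parental cells (268.9). These comparisons share arrays, and bone and liver are set against the same parental array.

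Between passages, only values of 1 array each can be given. At bone passage 6 the signal was below that at passage 3 for 8 of the 9 genes, beside 55.6% of all genes, and 0 of the 9 were 2-fold apart (background 2.43%). Which genes were lower depends on probe set and scaling. Sdc4 was higher at passage 6 on its other probe set (0.17). Gpc3 was higher after median centring (0.054) and quantile normalization (0.16), and Sdc1 was lower after quantile normalization (-0.019). Sulf2 had the widest gap, 373 at bone passage 6 against 672 at passage 3 (-0.82), followed by Hpse2 (-0.44) and Gpc4 (-0.39). At liver passage 3 the signal was above that at passage 1 for 6 of the 9, beside 52.3% of all genes. Sdc3 was 2-fold apart there (360 at passage 3 against 141 at passage 1, or 1.26), where 2.81% of all genes were, but its 3 probe sets ran from -0.17 to 1.26. Sulf2 (0.50), Gpc1 (0.48), Gpc4 (0.43) and Sdc1 (0.35) were higher at liver passage 3 by less than 2-fold. Between the arrays at passage 3, bone and liver were 2-fold apart for 2 genes, Hpse2 (2.34) and Sdc3 (-1.30), beside 4.59% of all genes. The 3 probe sets of Sdc3 ran from -1.30 to 0.08 in this comparison.

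**Figure D3:**
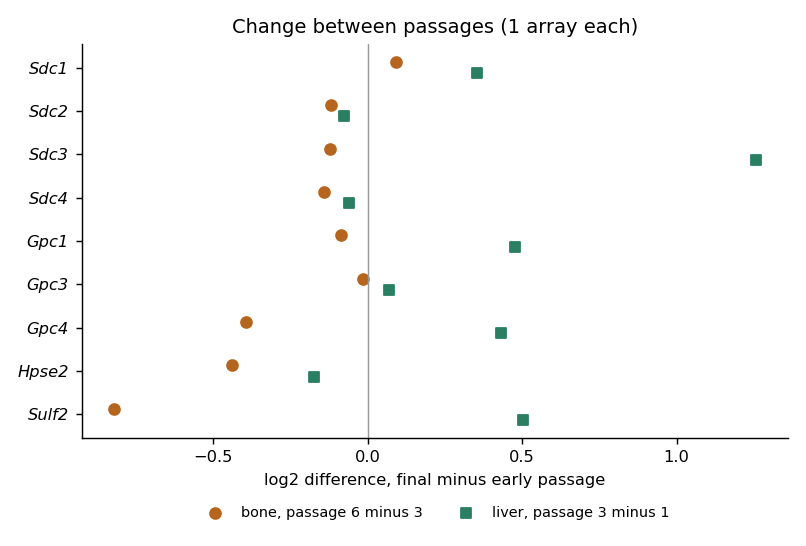
Log2 difference between the final and the early passage for the 9 tested genes, with brown circles for bone (passage 6 minus 3) and green squares for liver (passage 3 minus 1), each from 2 single arrays with no error. Sdc3 in liver (1.26) and Sulf2 in bone (-0.82) lie farthest from 0.

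The remaining genes of heparan sulfate metabolism were followed in 7 lists by role, with 82 genes, of which 66 were tested. Limma called 0 of the 66 in each of the 3 comparisons. At least 2-fold apart the same way in every pair of arrays were 0 of the 66 for bone against liver (1.06% of all genes), 5 for bone against parental (2.14%) and 1 for liver against parental (1.8%). At an unadjusted p under 0.05 there were 10 for bone against liver (4 higher and 6 lower), or 15.2%, beside 14.1% of all genes. There were 9 for bone against parental (6 higher and 3 lower), or 13.6% beside 8.17%, and 4 for liver against parental (3 higher and 1 lower), or 6.06% beside 7.49%. Their median log2 difference was 0.03, 0.04 and 0.08 in these comparisons. By list, the medians lay between -0.05 and 0.15 for bone against liver, between -0.28 and 0.17 for bone against parental and between -0.04 and 0.17 for liver against parental.

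Single enzymes of chain synthesis lay at least 2-fold from parental cells in both bone passages, without passing the test. Extl1, a glycosyltransferase of the exostosin family, read 246 and 168 at bone passages 3 and 6, 132.5 and 55.8 at liver passages 1 and 3, and 24.5 in parental cells (2.44 ± 0.46 for bone against parental, limma adjusted p = 0.189). With parental cells set at 25.1, bone was at least 8.09-fold higher. The 6-O-sulfotransferase Hs6st1, whose product Sulf2 acts on, read 494 and 464 at bone passages 3 and 6, against 1135 in parental cells (-1.22 ± 0.36, limma adjusted p = 0.409). Liver gave 988 and 551 at passages 1 and 3. Glce, the epimerase that makes the chain flexible, read 276 and 268 in bone, against 636 in parental cells (-1.18 ± 0.50, limma adjusted p = 0.617), and 980 and 388 in liver. All 4 sub-line arrays were above the parental one for Extl1 and below it for Hs6st1, whereas parental Glce lay between the liver passages.

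Outside chain synthesis, 2 genes met the same rule. The syndecan-tail partner Sdcbp2 (syntenin-2) was at 31.8 and 37.8 in bone and 19.5 and 43.3 in liver, against 4.1 in parental cells (for bone, 1.34 ± 0.34, limma adjusted p = 0.319). The chemokine Cxcl12, which heparan sulfate binds, was at 17.4 and 9.9 in bone and 11.4 and 13.4 in liver, against 56.7 in parental cells. It differed by -1.31 ± 0.25 in bone and -1.36 ± 0.25 in liver (limma adjusted p = 0.204 and 0.222). Parental Sdcbp2 and sub-line Cxcl12 were under 25.1. With those arrays set at 25.1, Sdcbp2 was at least 1.38-fold higher in bone than in parental cells, and Cxcl12 at least 2.26-fold lower in each sub-line.

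**Figure D4:**
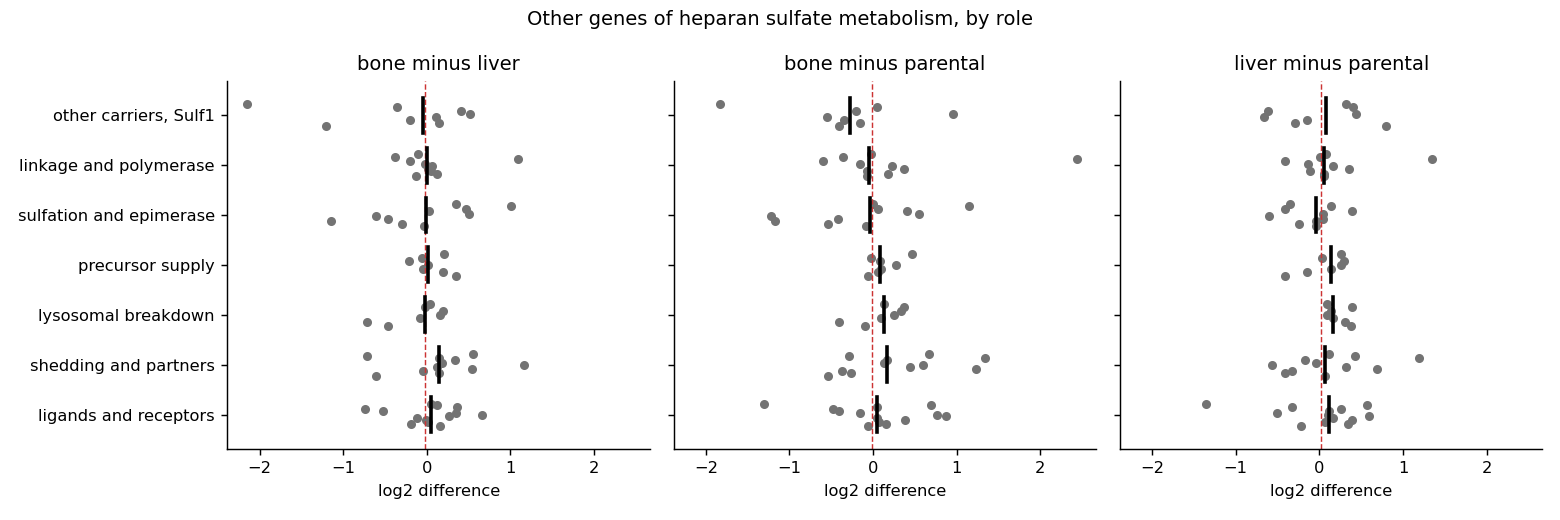
Log2 difference between lines for the 66 tested genes of 7 lists, 1 grey point per gene, with a black bar at the median of a list and a red dashed line at the median of all genes tested. The list medians lie between -0.28 and 0.17, and the point farthest right, Extl1 for bone minus parental, is at 2.44.

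Likeness of pattern was measured as the root mean square difference between log2 profiles over the 5 arrays, each centred on its own mean. The genes nearest to Hpse2 were Nqo1, a quinone oxidoreductase (0.25), Mlana, a melanosome protein (0.25), the myosin-binding protein gene Mybpc2 (0.31), Ecscr, an endothelial surface protein (0.33), and Id4, a helix-loop-helix regulator (0.34). Each was higher on both bone arrays than on the other 3, which follows from the choice by nearness. Nqo1, Mlana and Mybpc2 were under 25.1 on those other 3 arrays and, like Hpse2, passed the filter through bone alone. Id4 read 1978 and 1283 at bone passages 3 and 6, against 607 and 555 at liver passages 1 and 3 and 510 in parental cells. Nearest to Sdc3 (brightest probe set), the other member with the widest range, were Akr1c18 (0.07), Lncenc1 (0.08), Lce1i (0.10), Scara3 (0.12) and Cdkn2c (0.12), all highest at liver passage 3. Akr1c18 reached 25.1 only there (32.4), and Lncenc1 was under it on both bone arrays and at liver passage 1. For Sulf2, added after its values were seen, they were Camta1 (0.07), Parp9 (0.07), Sqor (0.08), Spata3 (0.10) and Oasl1 (0.10). Camta1 and Spata3 were under 25.1 at bone passage 6, at liver passage 1 and in parental cells. Parp9 and Oasl1 are interferon-induced genes. Parp9 read 557 and 324 at bone passages 3 and 6, 510 and 651 at liver passages 1 and 3, and 361 in parental cells. These genes were chosen as the closest of 12609 on 5 arrays, so that their shared pattern follows from the choice. The measure says nothing of shared control.

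**Figure D5:**
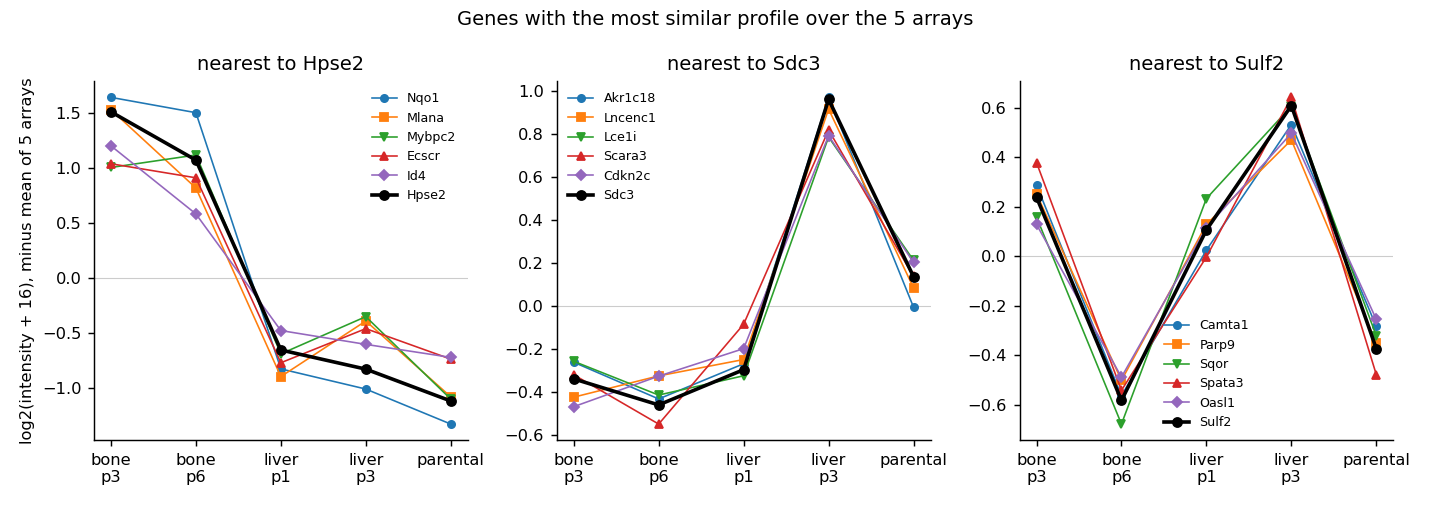
Log2(intensity + 16) minus its mean over the 5 arrays for Hpse2, Sdc3 and Sulf2 (black) and the 5 genes nearest to each (coloured), with a scale of its own in each panel. Hpse2 and its neighbours are high on the bone arrays, those of Sdc3 peak at liver passage 3, and those of Sulf2 are lowest at bone passage 6.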

How the data were processed

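RNeasy kits and 5 ug of total RNA per labelling reaction are named in the labels' protocols. What the authors deposited is a linear intensity for each of 45101 probe sets on 5 Affymetrix arrays of 1 colour. RMA is named in the submitters' processing notes, but its log2 scale is not that of these values. With 2% trimmed from each end, all 5 arrays had a mean of 150. Other steps are not given in the sources used here.

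Because the deposited intensities were linear, log2(intensity + 16) was computed for the tests, and the authors' scaling was kept. Gene names came from the platform annotation (34945 probe sets with 1 gene, 932 with several, 9211 not listed), with 34754 matched to RefSeq by gene identifier and 0 symbols changed. Probe sets whose highest intensity was under 25.1 were left out, and the one with the highest mean log2 value stood for its gene (12609 of 18193 genes). No probe set's level was set against another's. Limma 3.58.1 (lmFit, eBayes; R 4.3.3) fitted bone, liver and parental groups over all 5 arrays, with Benjamini-Hochberg adjustment over the genes tested and 2 residual degrees of freedom. The eBayes step drew each gene's variance toward that of all genes tested, with 4.2 prior degrees of freedom. The fit was also run on simulated data with independent errors on each array. Passages of 1 lineage are not independent, so that run could not test their use as replicates. Precision is limited by there being 5 arrays.

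Members and gene lists were chosen with earlier results of these data known. Named beside the 10 members were listed genes called, or at least 2-fold apart the same way in every pair of arrays of a comparison, up to 5 per list and comparison, and the 5 genes with the profile nearest to Hpse2 and to the other member with the widest range (RIKEN and predicted genes left out). Bounds (at least N-fold) are ratios of geometric mean intensities, with arrays under 25.1 set at that level, which is a filter level and not a measured background. Other named genes were chosen after their values were seen. Alternatives were other pseudocounts, filters, normalizations, averaged probe sets, a mean-variance trend, the stage as a block and each sub-line array left out.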

Additional observations from a re-analysis of the deposited data

Results flagged for a closer look

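For 5 of the 9 tested genes the signal moved in opposite directions between the early and the final passage of the 2 sub-lines, lower at the final passage in bone and higher in liver. Of all 12609 genes, 27.9% moved these ways. This difference was not tested, because each passage is 1 array. The change in liver minus the change in bone was 1.38 on the log2 scale for Sdc3 (1.26 in liver and -0.12 in bone), 1.33 for Sulf2 (0.50 and -0.82), 0.82 for Gpc4 (0.43 and -0.39), 0.56 for Gpc1 (0.48 and -0.09) and 0.084 for Gpc3 (0.069 and -0.015). Both probe sets of Gpc4 gave this pattern, and 2 of 3 did for Sdc3 and for Sulf2. The count of 5 depends on the probe set chosen for a gene, since Sdc2 joined it with its probe sets averaged (0.12 in liver and -0.42 in bone). For Gpc3 the bone value was positive after median centring and after quantile normalization, which take up the lower median of bone passage 6 (21.9, against 26.4 for bone passage 3).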

How the results depend on the processing

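The 24 genes called between bone and liver became 0 with a pseudocount of 1 (1581 at an unadjusted p under 0.05) and 0 with no filter on low values (2154). They became 39 with a filter on the mean, 61 with median centring, 15 with probe sets averaged, 52 with a mean-variance trend and 161 with the stage (early or final) as a replicate block, and 0 to 75 without 1 array (1325 and 2020 at an unadjusted p under 0.05 where limma called 0). The labels give no replicate numbers that pair the samples, and stage was the only block available. Of the listed genes, 0 became 2 with the replicate block (Gpc6 and Notum) and 0 to 1 without 1 array (Nrp1, without bone passage 3). Among the members, Hpse2 was not called between bone and liver (0 of 9) with a pseudocount of 1 or 64, no filter, or averaged probe sets, and the count was 0 to 1 without 1 array. Its log2 difference moved to 3.08 and 1.06 with pseudocounts of 1 and 64, and against parental cells to 4.23 and 1.18. Hpse2 was chosen for its bone values, so nothing is read from its calls here or between bone and parental.

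Between bone and parental the 17 calls became 1 with a pseudocount of 1, 1 with no filter, 37 with median centring, 9 with averaged probe sets, 31 with the trend and 8 to 52 without 1 array. The listed genes gave 0 to 1 without 1 array (Nrp1, without bone passage 3). Members called became 1 (Hpse2) with the filter on the mean, median centring and quantile normalization, and 0 to 1 without 1 array. Between liver and parental the 2 calls became 1 with a pseudocount of 1, 5 with 64, 1 with no filter, 6 with median centring, 7 with the trend and 0 to 38 without 1 array.

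Of 45 differences of the members, 33 kept their sign in every alternative. The other filters, the trend and the block left these values as they were, so they could not turn a sign. Leaving out an array of a line outside a comparison could not do so either. Among the 33 is Hpse2 in the bone comparisons, for which it was chosen. For liver against parental, Sdc3 turned to -0.062 with averaged probe sets, and Gpc4 to -0.015 with median centring, -0.0067 with quantile normalization and -0.017 with averaged probe sets. Without 1 array the same difference ran from -0.43 (without liver passage 3) to 0.83 (without liver passage 1) for Sdc3, from -0.15 to 0.33 for Gpc1 and from -0.19 to 0.235 for Gpc4, with the same arrays left out. The causes were not tested. Hpse, and Hpse2 outside bone, lay under the filter level, where signal over background limits what can be measured.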

Other observations

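Of the 8 other carriers of heparan sulfate that were tested, limma called 0 between bone and liver. Of these, 4 had a log2 difference above 0 and 4 below, with a median of -0.05, beside -0.02 over all genes. The 2 described here were chosen after their values were seen. Gpc6, a further glypican, read 159 and 137 at bone passages 3 and 6, against 411 and 320 at liver passages 1 and 3 and 201.5 in parental cells (-1.21 ± 0.21 for bone against liver, limma adjusted p = 0.106, and 0.80 ± 0.25 for liver against parental, adjusted p = 0.548). Nrp1, a semaphorin and VEGF co-receptor that can carry a heparan sulfate chain, read 125 and 15.1 at bone passages 3 and 6, against 222 and 349 at liver passages 1 and 3 and 220 in parental cells. Its difference was -2.15 ± 0.67 for bone against liver (limma adjusted p = 0.244). Both bone arrays were below the other 3, bone passage 6 by the wider margin. That array was under 25.1, so that the size of the Nrp1 difference is not exact. The genes nearest in pattern to Sdc1, also added afterwards, were P3h3 (root mean square difference 0.06), Ppm1k (0.09), Wbp2 (0.09), Sgms2 (0.10) and Tmem120a (0.10). Each had all 4 sub-line arrays above the parental one, which follows from the choice by nearness.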
